A study of Mus musculus with 6 samples.

Results

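In a circRNA the donor site at the end of an exon is joined back to an acceptor site upstream of it in the same gene, which closes the RNA into a ring. The circles described here lay on exons, had an earlier record in circBase or in a published list, and had at least 10 junction reads over 6 libraries of mouse lung, a junction read being one that spans the closing back-splice. Of the 3696 circRNAs listed, 387 met this rule, which is 10.5%. They came from 329 host genes and held 8784 of the 20983 junction reads (41.9%). The record was in circBase for 227 of them and in another publication for 160. The circles were selected on the sum of junction reads over the 6 libraries and on the earlier record, so their high level is not a finding.

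The lungs were those of male C57BL/6 mice aged 8 to 10 weeks. Mice of the PBLI (primary blast lung injury) group were anesthetized and exposed to a blast wave with a peak of 0.5 bar, and lungs were taken 6 h later. Control mice were anesthetized in the same way without exposure to the blast. Each library was made from the right upper lobes of 2 mice, pooled, with 3 libraries per group, so n = 3 pools. The PBLI pools carry the names G3 to G5. Lung markers were at high levels in all 6 libraries: Sftpc of alveolar type 2 cells averaged 9407 FPKM in PBLI and 7105 FPKM in Control lungs, and Ager of alveolar type 1 cells averaged 501 FPKM in PBLI and 433 FPKM in Control lungs. PBLI G5 stood apart from the other PBLI libraries in neutrophil genes: S100a8 was at 1115 FPKM in G3, 1011 in G4 and 186 in G5, against 135, 93.6 and 133 FPKM in the Control libraries. Values per library are given below in the order G3, G4, G5 for PBLI and 1, 2, 3 for Control.

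Back-splicing competes with linear splicing of the same transcript. It is known to be favored by long flanking introns that pair with each other and by RNA-binding proteins such as Qk and Mbnl1, and to be reduced by proteins that open RNA duplexes, such as Adar and Dhx9. A circle has no free ends, so exonucleases do not attack it, and circles can outlast the linear RNA of the same gene. A few circles bind miRNAs or proteins, and for most no role is known.

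The junctions of the 10 circles with the most reads are shown because a read is counted for a circle only where it crosses this join, which the linear order of exons lacks. Each line gives the last 15 bases of the circle in lower case and its first 15 bases in capitals, 5′ to 3′ on the strand of the gene, read from the RefSeq sequence of GRCm38 (mm10).
Ankib1, chr5:3747021-3772787, minus strand: tgcttcgagctcacgAATGTGAAACATGTT
Erbb2ip, chr13:103884143-103889285, minus strand: atgtcagcaaaaatgAATGTTGGCTCAATT
Nfix, chr8:84771784-84772315, minus strand: ttgtccacactccggGATGAGTTCCACCCG
Med13l, chr5:118593333-118593570, plus strand: atcatgaactgcaggGCTGAACTCACAGGA
Lamp3, chr16:19673391-19701382, minus strand: actcctttggaaatgTAATTTTACATGGCT
Strn3, chr12:51647994-51661713, minus strand: atggtacagaatgggGCACGGATTGCATTT
Mettl9, chr7:121047838-121057399, plus strand: cctatgtagaaaacgTGGTATGTGTGCAAC
Gigyf2, chr1:87364104-87380008, plus strand: gaagaaaagatgtagGCTCCGTGCTCTGTC
Rnf169, chr7:99935162-99955540, minus strand: agcgttcctggcaggAGTTTATATTCAGAA
Arid1a, chr4:133719537-133723051, minus strand: ccctccagcttgcctTCATCCAGTCCAATG

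The Med13l circle is exon 2 of a transcript of 31 exons, closed on itself, and is short enough to show whole. It has 238 bases, all coding, and its first 15 bases are in capitals.
Med13l, chr5:118593333-118593570, plus strand: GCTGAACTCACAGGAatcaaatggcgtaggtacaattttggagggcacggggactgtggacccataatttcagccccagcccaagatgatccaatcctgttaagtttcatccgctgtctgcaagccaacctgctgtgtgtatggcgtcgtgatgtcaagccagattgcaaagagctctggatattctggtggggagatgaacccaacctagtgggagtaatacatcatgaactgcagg

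Reads per circle were few. The lowest was 10, the quartiles were 12, 16 and 25, and the highest was 136. Of the 387 circles, 144 had at least 20 reads, 27 at least 50 and 4 at least 100. Just inside the limit lay 46 circles with 10 reads and 30 with 11, and just outside lay 54 recorded exonic circRNAs with 9 reads and 60 with 8. The 387 circles had 1706, 1525 and 1947 reads in PBLI and 1089, 1150 and 1367 reads in Control libraries. Their share of all junction reads was 42.1% ± 0.857 in PBLI and 41.8% ± 3.45 in Control libraries (SD, n = 3), so the share differed by less than the spread between the Control libraries. PBLI libraries had more junction reads in all, 3568 to 4733, against 2513 to 3379 in Control libraries.

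All 6 libraries held reads of 193 of the circles, 5 libraries held 124, 4 held 63, 3 held 6 and 2 held 1. All 3 PBLI libraries held reads of 317 circles and all 3 Control libraries of 231. Between single libraries the ranks of the 387 read counts went together only loosely. Spearman's correlation was 0.32 to 0.43 within PBLI, 0.29 to 0.36 within Control and 0.28 to 0.37 between the groups, and these ranges overlapped. These are descriptions over circles that share libraries.

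The circle with the most reads came from Ankib1, which codes for a ubiquitin ligase of the RING-between-RING type. It had 27, 23 and 32 reads in PBLI lungs, against 18, 16 and 20 reads in Control lungs. The groups did not overlap in raw reads or after scaling to library size by TMM factors. The scaled ratio of PBLI to Control was 1.26, with a 95% counting interval of 0.886 to 1.82 (exact binomial, counting error only).

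Erbb2ip, the scaffold protein erbin of cell junctions, gave 20, 21 and 20 reads in PBLI and 23 reads in each Control library. Its ratio was 0.736 with an interval of 0.513 to 1.05, and the libraries of each group differed by 1 read at most. Nfix, a transcription factor of the nuclear factor I family, gave 23, 16 and 21 reads in PBLI and 13, 23 and 17 in Control lungs. Its groups overlapped.

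Med13l, a subunit of the kinase module of Mediator, gave 17, 18 and 20 reads in PBLI and 20, 13 and 17 reads in Control lungs, a ratio of 0.916 (interval 0.613 to 1.37). Lamp3, a membrane protein of lysosomes and of the lamellar bodies of alveolar type 2 cells, gave 18, 17 and 27 reads in PBLI and 4, 9 and 24 reads in Control lungs. Control 3 lay within the PBLI range and the other Control libraries below it, and the ratio was 1.40 (interval 0.914 to 2.16). A second Lamp3 circle with the same donor site, of 2 exons, gave 20, 13 and 12 reads in PBLI and 11, 1 and 18 reads in Control lungs, so Control 3 was again the highest of its group. The 10 listed markers of type 2 cells, Lamp3 among them, summed to 12603 to 13516 FPKM in PBLI and 9669 to 10671 FPKM in Control lungs, none of them was at 0 and 1 rose. Their part in the Lamp3 reads was not tested, and in whole lung more cells of a type and more RNA per cell cannot be told apart.

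The other circles of the top 10 came from Strn3 (a striatin of phosphatase complexes), Mettl9 (a histidine methyltransferase), Gigyf2 (a repressor of translation), Rnf169 (a ubiquitin ligase at DNA breaks) and Arid1a (a subunit of BAF chromatin remodelers). Only Rnf169 had groups apart, with 16, 15 and 24 reads in PBLI and 9, 12 and 8 reads in Control lungs. Its ratio was 1.58 and its interval, 0.99 to 2.57, reached 1. None of the 10 passed the thresholds of the differential test given below.

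**Figure D1:**
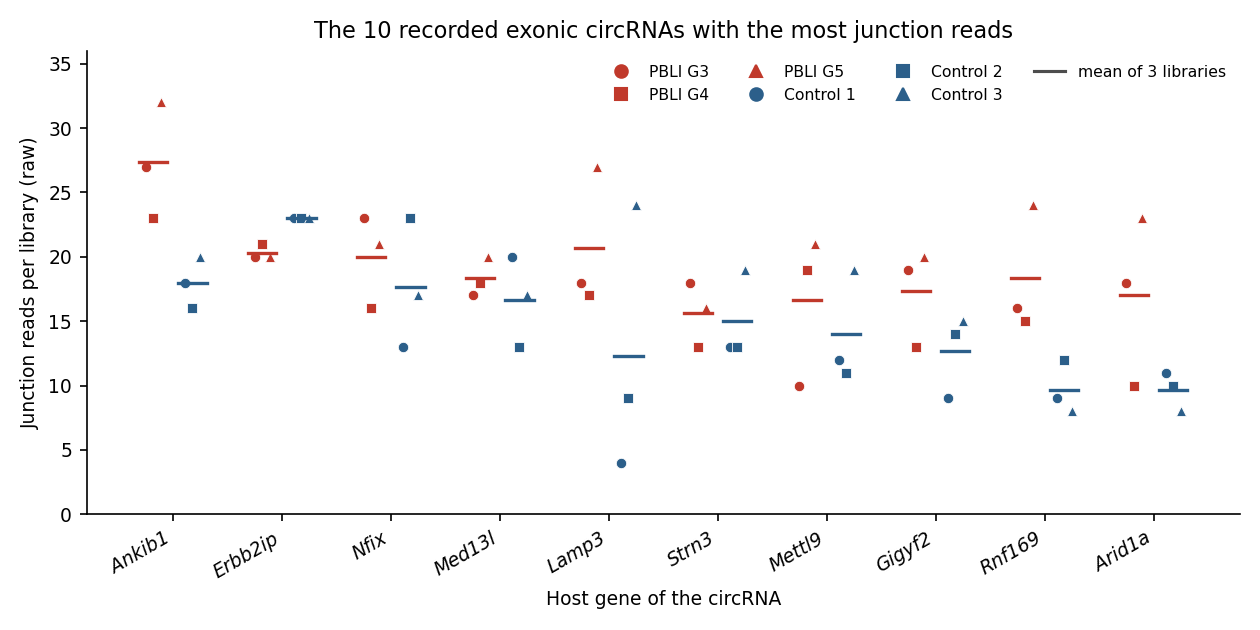
Raw junction reads per library (y axis) of the 10 circles with the most reads, by host gene, with PBLI libraries in red to the left and Control libraries in blue to the right of each gene. Points are libraries and bars are means of 3. Ankib1 had 23 to 32 reads in PBLI and 16 to 20 in Control libraries, Erbb2ip had 20 to 21 and 23, and the groups overlapped in most of the other genes.

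To see whether the circles differed between PBLI and Control lungs, all 3696 circRNAs were fitted together with edgeR's quasi-likelihood test and TMM factors, and the 387 were read out of that fit. A circle was called at a fold change of at least 2 with an unadjusted p of at most 0.05, the thresholds of the study. In PBLI, 17 of the 387 circles were higher (4.39%) and 6 were lower (1.55%). Over all circRNAs the same thresholds called 0.785% higher and 0.487% lower. Among the 435 circRNAs of any class with at least 10 reads they called 4.6% higher and 1.38% lower. The 387 make up most of this set, so the shares were bound to be close. Of the 48 others with at least 10 reads, 3 were called higher and 0 lower. None of the 387 had an adjusted p under 0.05 in edgeR (lowest 0.527). An unadjusted p of at most 0.05 was found for 23 of the 387, beside 27 of the 435 with at least 10 reads and 1.3% of all circRNAs. DESeq2 called 3 higher and 5 lower and edgeR's exact test 13 and 5, again with none at an adjusted p under 0.05. Without Control 3, edgeR put 1 of the 387 under it, the Tc2n circle of exons 4 to 9 (adjusted p = 0.0151), and without each other library it put 0.

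The balance between higher and lower circles moved with the scaling. TMM counted Control 1 and Control 2 as larger than their totals, and Control 3 and the PBLI libraries as smaller. With library totals the log2 ratio of PBLI to Control reads fell by 0.24. Then 12 circles were higher and 10 lower, against 17 and 6 with TMM, and RLE size factors gave 14 and 9. All 12 and all 14 were among the 17. The median log2 fold change of the 387 was 0.32 with TMM, 0.13 with RLE and 0.09 with library totals, beside 0.56 over all circRNAs and 0.33 over those with at least 10 reads under TMM. Without Control 3 the higher calls numbered 30, of which 10 were among the 17, and without PBLI G5 they numbered 21, of which 9 were.

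The size of the change followed the number of reads. The SD of the log2 fold change was 1.16 over the 243 circles with 10 to 19 reads, 0.72 over the 117 with 20 to 49 reads and 0.47 over the 27 with at least 50 reads. Of the 17 higher circles 11 had fewer than 20 reads, and of the 6 lower circles 3 had. The raw reads of PBLI and Control libraries did not overlap for 33 circles with PBLI higher and 4 with PBLI lower, and of the circRNAs with at least 10 reads 8.51% and 0.92% did so. With normalized reads the numbers were 33 and 16, beside 8.51% and 3.68%.

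**Figure D2:**
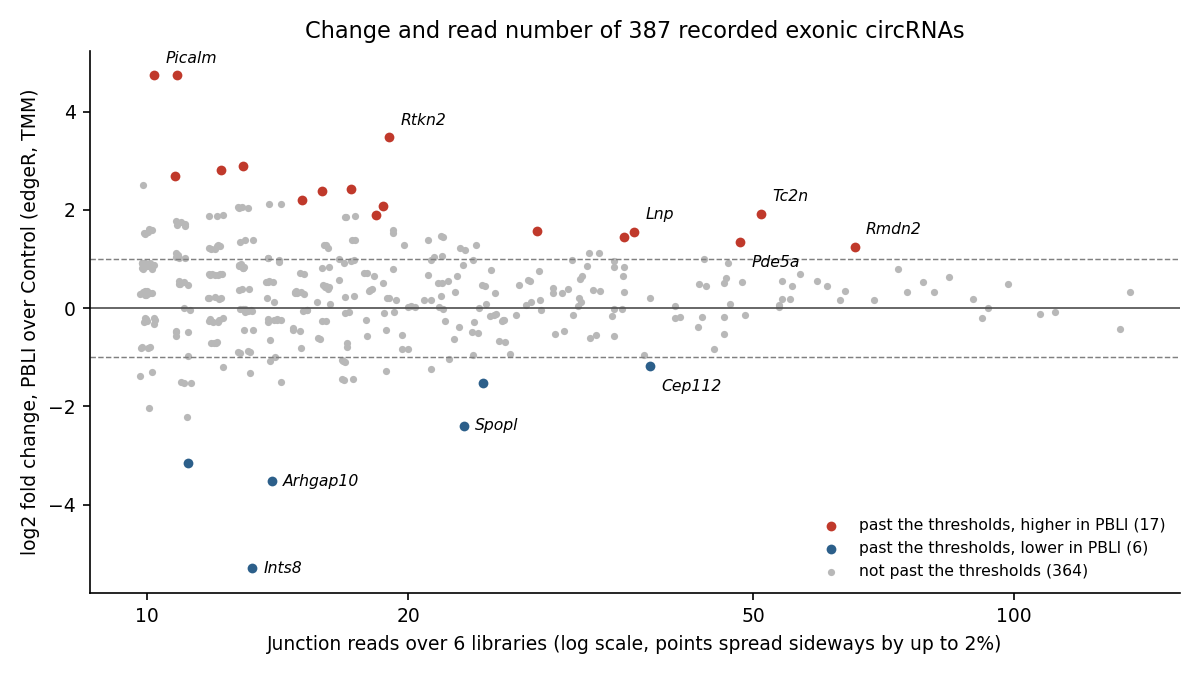
Log2 fold change of PBLI over Control from edgeR with TMM factors (y axis) against the junction reads over 6 libraries (x axis, log scale) for the 387 circles. Red points (17) were past the thresholds and higher in PBLI, blue points (6) lower, grey points (364) neither, and dashed lines mark a fold change of 2. The spread narrows from an SD of 1.16 at 10 to 19 reads to 0.47 at 50 reads or more.

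Only 2 circles with at least 50 reads were called, those of Rmdn2 and Tc2n. Rmdn2, a regulator of microtubules, gave 13, 19 and 17 reads in PBLI and 7, 7 and 3 reads in Control lungs from exons 3 to 5 (chr17:79650302-79659473). The groups were apart, the log2 fold change was 1.25 and the ratio had an interval of 1.36 to 4.45. Without Control 3 the log2 fold change was 0.86 and not past the thresholds, nor was it in DESeq2 (1.062, unadjusted p = 0.0724). Its host gene was at 16.6 ± 1.4 FPKM in PBLI and 14.7 ± 1.2 FPKM in Control lungs (SD, n = 3).

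Tc2n codes for a nuclear protein with tandem C2 domains and was the only host gene with 4 circles among the 387. The 4 circles share 1 acceptor, at the start of exon 4 of a transcript of 12 exons, and close on it from 4 different donor sites, so they are nested. Their junctions are shown because the shared start and the differing ends can be read in them, with the last 15 bases in lower case and the first 15 in capitals.
Tc2n, chr12:101688960-101694673, exons 4 to 7: atcacagttttgcagGATCTGCTAGAGCAT
Tc2n, chr12:101678514-101694673, exons 4 to 8: aaagaaggttccaatGATCTGCTAGAGCAT
Tc2n, chr12:101665553-101694673, exons 4 to 9: ccttcaaaaatttctGATCTGCTAGAGCAT
Tc2n, chr12:101649007-101694673, donor at no exon end of the RefSeq transcripts: aatgagtcctttcagGATCTGCTAGAGCAT

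The circle of exons 4 to 9 gave 13, 12 and 17 reads in PBLI and 1, 1 and 7 reads in Control lungs. The groups were apart, the ratio was 3.89 with an interval of 1.87 to 9.08, and the log2 fold change of 1.92 had the smallest unadjusted p of the 387 in edgeR (adjusted p = 0.527). It was past the thresholds without each library in turn, with a log2 fold change of 1.54 to 3.32. The circle of exons 4 to 8 gave 6, 14 and 11 reads in PBLI and 2, 3 and 8 reads in Control lungs, a ratio of 1.99 (interval 1.01 to 4.14). The shortest, of exons 4 to 7, gave 6, 4 and 9 reads in PBLI and 4, 2 and 6 in Control lungs, with a ratio of 1.32 (interval 0.608 to 2.98). The longest gave 8, 1 and 6 reads in PBLI and 3, 0 and 1 in Control lungs.

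All 4 Tc2n circles had more reads per library size in PBLI, but only that of exons 4 to 9 passed the thresholds. Together they had 33, 31 and 43 reads in PBLI and 10, 6 and 22 reads in Control lungs, with Control 3 the highest of its group. The 4 other circRNAs of the gene in the table had 2, 5 and 9 reads in PBLI and 5, 5 and 1 in Control lungs, so their groups overlapped. The Tc2n gene itself was at 16.2, 17.9 and 16.7 FPKM in PBLI and 19.7, 18.2 and 20.5 FPKM in Control lungs, with every PBLI library below every Control library (limma, adjusted p = 0.319).

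Pde5a, the phosphodiesterase that breaks down cGMP in smooth muscle, had 3 circles among the 387. The circle of exon 2 alone stands apart from the other 2, which share a donor at the end of exon 12 and differ in the exon at which they start. Their junctions show the shared and the differing ends, written as above.
Pde5a, chr3:122747889-122748477, exon 2: aaagatgcctatgagAGACATGGTCAACGC
Pde5a, chr3:122781567-122818067, exons 7 to 12: cagatgaaacatgagGACTCTTTCTCTCGT
Pde5a, chr3:122794260-122818067, exons 8 to 12: cagatgaaacatgagGGAGCAAGATGCAAA

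The circle of exons 7 to 12 gave 8, 14 and 15 reads in PBLI and 4 reads in each Control library. The groups were apart and the log2 fold change was 1.34 (ratio 2.57, interval 1.31 to 5.41), and it was past the thresholds without each library in turn, at 1.17 to 1.54, but not in DESeq2 (1.16, unadjusted p = 0.0786). That of exon 2 gave 5, 11 and 12 reads in PBLI and 7, 4 and 6 reads in Control lungs and overlapped, and that of exons 8 to 12 gave 3, 3 and 5 reads in PBLI and 1, 2 and 2 in Control lungs. The 3 other circRNAs of the gene together had 0, 2 and 0 reads in PBLI and 1, 2 and 6 in Control lungs, a sum that was not tested between pools. Their ratio was 0.185 (interval 0.0195 to 0.894), and their groups overlapped. The gene itself moved against the circle of exons 7 to 12. It was at 51.0, 55.9 and 31.7 FPKM in PBLI and 109, 107 and 92.6 FPKM in Control lungs. It fell by 1.18 on the log2(FPKM + 0.5) scale (limma, adjusted p = 0.035).

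The 11 listed fibroblast and smooth muscle markers summed to 583 to 641 FPKM in PBLI and 792 to 888 FPKM in Control lungs, none was at 0 and 2 fell. Their part in the Pde5a values was not tested.

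The change of each circle was then set against that of its host gene in the same library, as log2 CPM (junction reads scaled to library size) minus log2(host FPKM + 0.5), and fitted with limma over the 3565 circRNAs with a host gene that passed the FPKM limit. The FPKM of a host includes reads within the exons of the circle itself. Of the 384 circles tested, 2 were higher relative to the host in PBLI at an adjusted p under 0.05, and 0 were lower. Over all 3565 circRNAs 0.0842% were higher and 0 lower. Without adjustment, 31 of the 384 were higher and 6 lower at a p of at most 0.05, beside 2.38% and 0.617% of all. Those background shares are over circRNAs of any read number. The whole fit leaned upward: the median log2 ratio change was 0.44 over the 384 and 0.39 over all 3565. With library totals the median of the 384 was 0.22. The 2 circles were Pde5a exons 7 to 12, at 2.41 ± 0.52 (SE) on the log2 scale (adjusted p = 0.0057), and Tc2n exons 4 to 9, at 2.47 ± 0.59 (adjusted p = 0.032). With library totals in place of TMM only Pde5a remained, Tc2n being at 2.26 with an adjusted p of 0.14 in limma. Without Control 1, Tc2n had an adjusted p of 0.0695 and without Control 3 the number was 4.

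**Figure D3:**
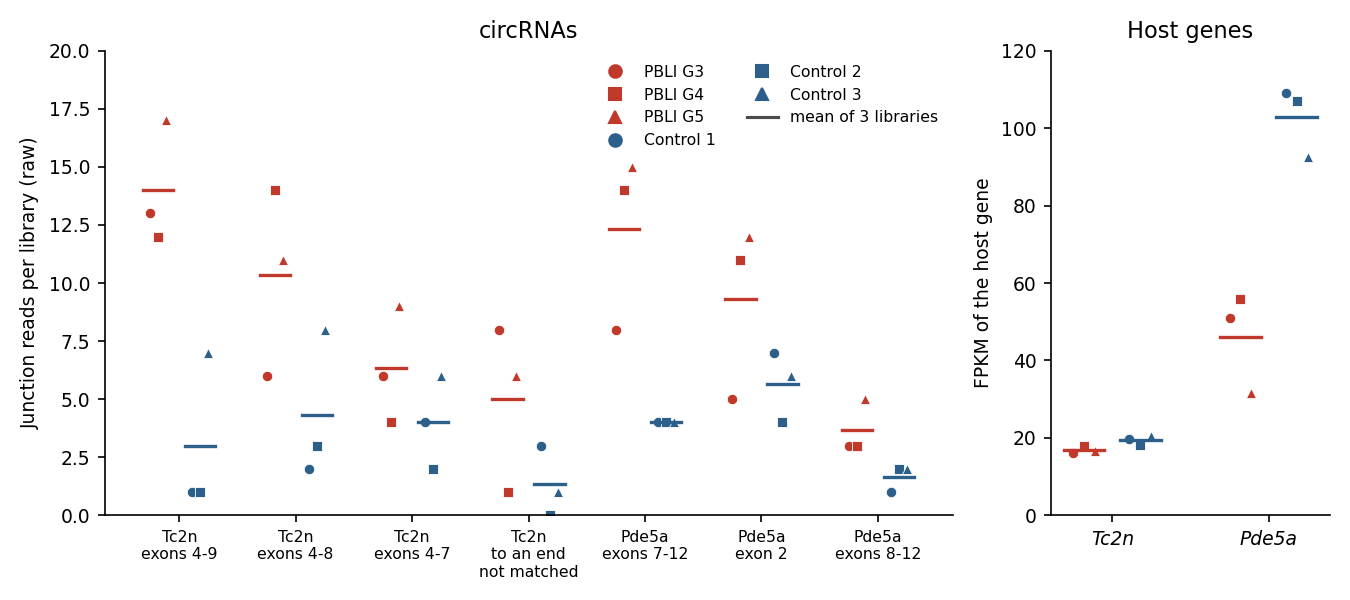
Raw junction reads per library of the 4 Tc2n and 3 Pde5a circles (left panel, by exons) and FPKM of the host genes (right panel), with PBLI in red to the left and Control in blue to the right. Points are libraries and bars are means of 3. Tc2n exons 4 to 9 had 12 to 17 reads in PBLI and 1 to 7 in Control libraries at a host level of 16.2 to 17.9 and 18.2 to 20.5 FPKM, and Pde5a exons 7 to 12 had 8 to 15 reads and 4 reads while the host was at 31.7 to 55.9 and 92.6 to 109 FPKM.

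The other higher circles named here had fewer reads. Of all the higher circles DESeq2 called only 3, those of Tc2n exons 4 to 9, Rtkn2 and Picalm. Lnp, a protein of endoplasmic reticulum junctions, gave 6, 11 and 12 reads in PBLI and 1, 4 and 3 in Control lungs from exons 2 to 4, and was not past the thresholds in DESeq2 (1.40 on the log2 scale, unadjusted p = 0.0729). Bbs9, a subunit of the BBSome of cilia, gave 16, 5 and 6 reads in PBLI and 2, 4 and 2 in Control lungs, with PBLI G3 far above the other PBLI libraries. Without PBLI G3 its log2 fold change was 0.72 and no longer past the thresholds, against 1.46 with all libraries.

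Nab1, a corepressor of EGR factors, gave 7, 1 and 7 reads in PBLI and 1, 1 and 0 reads in Control lungs. Rprd1b, which binds the tail of RNA polymerase II, gave 5, 9 and 2 reads in PBLI and 2, 1 and 0 in Control lungs, and both overlapped between the groups. Nab1 was not past the thresholds without PBLI G3 (2.04 on the log2 scale), PBLI G5 (2.1996) or Control 3 (1.84), against 2.42 with all libraries, nor Rprd1b without PBLI G4 (1.40) or Control 3 (1.44), against 2.08. Rtkn2, a marker of alveolar type 1 cells, gave 6, 2 and 10 reads in PBLI and 0, 0 and 1 in Control lungs from exons 7 to 9, a ratio of 14.99 with a very wide interval of 2.37 to 625. The 10 type 1 markers, Rtkn2 among them, summed to 2341 to 2537 FPKM in PBLI and 2062 to 2358 FPKM in Control lungs, with none at 0 and none past the adjusted threshold.

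Reads in PBLI only were found for 2 circles, both near the limit of 10 reads, which they passed through PBLI alone. Chordc1, a cochaperone of the heat shock protein chaperones, gave 0, 2 and 9 reads in PBLI, and Picalm, a clathrin assembly protein, gave 2, 7 and 1. Against the 3 reads that a count of 0 over the Control group allows, they were at least 3.05-fold and 2.78-fold higher. The Chordc1 reads lay in PBLI G5 for 9 of 11, and without that library the circle was not past the thresholds, as the Picalm circle was not without PBLI G4.

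The lower circles came from Ints8, Spopl, Arhgap10, Smad1, Cep112 and AW554918. Ints8, a subunit of the Integrator complex, gave no reads in PBLI and 4, 6 and 3 reads in Control lungs, at least 5.20-fold lower against a floor of 3 reads over the PBLI group. Its 13 reads were near the limit of 10, which it passed through Control alone. Arhgap10, a GTPase-activating protein, gave 0, 0 and 1 reads in PBLI and 3, 8 and 2 in Control lungs. It too passed the limit through Control alone. Of the lower circles only these 2 had raw groups apart, while with reads normalized to library size 5 of the lower circles did.

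Spopl, an adaptor of cullin ubiquitin ligases, gave 0, 2 and 2 reads in PBLI and 8, 2 and 9 reads in Control lungs. Smad1, the transducer of BMP signals, gave 0, 0 and 1 reads in PBLI and 1, 6 and 3 in Control lungs. Cep112, a centrosomal protein, gave 8, 1 and 4 reads in PBLI and 7, 5 and 13 in Control lungs, and its log2 fold change of -1.18 was -0.75 without PBLI G4, -1.03 without PBLI G5 and -0.81 without Control 3, none of them past the thresholds. Without Control 2 neither Arhgap10, at -2.76, nor Smad1, at -2.44, was past the thresholds, against -3.53 and -3.15 with all libraries. AW554918, a gene of unstated role, gave 1, 1 and 5 reads in PBLI and 8, 5 and 4 in Control lungs, and was not past the thresholds without PBLI G3, PBLI G4 or Control 1 (-1.20, -1.23 and -1.17, against -1.52). Ints8 and Spopl were past the thresholds without each library in turn.

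Most host genes of the circles changed by less than 1.5-fold. Of the 326 host genes in the mRNA table, all of which passed the limit of 0.5 FPKM, 312 (95.7%) were within 1.5-fold of Control, beside 87.4% of all 14760 genes tested. The hosts had a higher level (median 26.5 beside 9.05 FPKM), so these shares are not matched for level. At an unadjusted p of at most 0.05 in limma there were 59 of the 326 hosts, beside 9.15% of all genes higher and 10% lower. At an adjusted p under 0.05 in limma, 2 host genes rose and 6 fell, beside 1.15% and 0.928% of all genes. Of the 17 higher circles 1 had a host that rose (Chordc1) and 1 a host that fell (Pde5a), 16 had hosts within 1.5-fold, and all 6 lower circles had. These host calls were sensitive to single libraries: without PBLI G3, Control 1 or Control 2 none of the 326 passed, without PBLI G4 or Control 3 no more than 3 did, and without PBLI G5 there were 11. Without the FPKM limit 1 rose and 0 fell.

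The hosts that rose were Chordc1, with 40.2, 40.6 and 39.8 FPKM in PBLI and 26.8, 26.3 and 27.7 FPKM in Control lungs, and Osmr, the receptor for oncostatin M, with 66.6, 66.5 and 79.3 FPKM in PBLI and 39.5, 34.3 and 41.9 FPKM in Control lungs. The Osmr circle had 1, 1 and 6 reads in PBLI and 1, 1 and 0 in Control lungs. Both hosts had groups well apart (adjusted p = 0.018 and 0.016 in limma), whereas the Osmr circle did not.

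Beside Pde5a, the hosts that fell were Scn7a (a sodium-sensing channel), St6galnac3 (a sialyltransferase), Inpp4b (a phosphoinositide phosphatase), Ldb2 (a LIM domain cofactor) and Tns3 (a tensin of focal adhesions). Scn7a was at 84.1, 92.8 and 54.4 FPKM in PBLI and 233, 273 and 175 FPKM in Control lungs, and its circle had 5, 0 and 0 reads in PBLI and 4, 2 and 6 in Control lungs. St6galnac3 was at 6.56, 7.58 and 5.87 FPKM in PBLI and 16.6, 14.6 and 12.2 FPKM in Control lungs, and its circle of exon 3 had 3, 2 and 6 reads in PBLI and 1, 3 and 4 in Control lungs.

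The Inpp4b circle had 2, 0 and 0 reads in PBLI and 2, 4 and 3 in Control lungs, and was past the thresholds with RLE or library totals but not with TMM. In all, 8 circles came from the 6 hosts that fell, and 4 of them had a log2 fold change above 0 and 4 below. Over the 384 circles, Spearman's correlation between the log2 fold change of the circle and that of its host was 0.10, and over the 27 with at least 50 reads it was 0.14, as a description.

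The level of a circle did not follow that of its host either. Spearman's correlation between junction reads and host FPKM was 0.03 over 384 circles (Pearson's r on log2 values 0.05) and 0.04 with 1 circle per host (n = 326). The limit of 10 reads cuts off the low end of this range, and circles of one library set share its depth. The hosts were of middling to high level, with a median of 26.5 FPKM beside 9.05 FPKM over all tested genes. The 41 circles of hosts under 10 FPKM had a median of 16 reads and the 22 of hosts over 100 FPKM a median of 19.5.

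Set against the host, reads per FPKM ran from 0.0246 to 19.004 with a median of 0.675. The highest was the Ankib1 circle, with 136 reads at a host of 6.99 ± 1.2 FPKM in PBLI and 7.32 ± 0.63 FPKM in Control lungs. Then came Zfp827 (a zinc finger protein, 10.97 reads per FPKM), Sh2d4b (an SH2 domain protein, 10.3), Tasp1 (the protease that cleaves KMT2 proteins, 9.62) and Rasa2 (a GTPase-activating protein for Ras, 6.60).

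The lowest were circles of Macf1 (0.0246), Lmo7 (0.0257), Sptbn1 (0.0325), Npnt (0.0426) and Ctnna1 (0.0614). Macf1, which links actin and microtubules, was at 359 FPKM in PBLI and 617 FPKM in Control lungs. It was not among the hosts past the adjusted threshold. Its circle of 17 exons had 3 reads in each PBLI library and 2, 1 and 0 in Control lungs, and was not called.

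**Figure D4:**
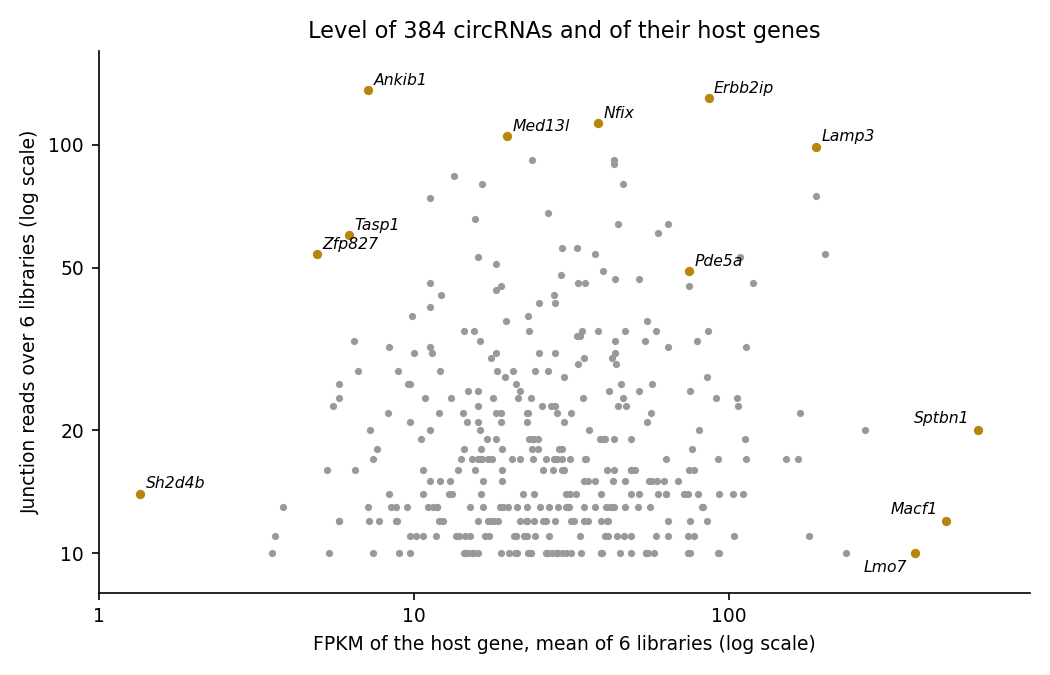
Junction reads over 6 libraries (y axis, log scale) of 384 circles against the mean FPKM of the host gene over 6 libraries (x axis, log scale). Each point is a circle and labelled points are circles named in the text. The points show no trend (Spearman's correlation 0.03), from Sh2d4b at the left to Sptbn1 at the right, with the Ankib1 circle highest at a host near 7 FPKM.

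The circles had structural features that the rule did not use. Both ends lay at exon edges of RefSeq transcripts of GRCm38 for 382 of the 387, 4 had 1 such end and 1 had none, and all 387 were flanked by AG at the acceptor and GT at the donor. Matching exon ends is what the class of exonic circRNAs means, so this checks the label only. The first exon of the circle was exon 2 of its transcript in 189 of 382 (49.5%), beside 33.8% of 1718 recorded exonic circRNAs under 10 reads and 22.7% of 727 exonic circRNAs without a record. Among the 27 circles with at least 50 reads it was 21, and among the top 10 it was 9. No circle in any of the 3 sets held the last exon.

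Circles of 1 exon made up 11.8%, beside 4.95% and 3.164% in the other sets, and circles of over 5 exons 14.9%, beside 20.2% and 32.3%. The start codon of the transcript lay in 23.3% of the circles, beside 15.8% and 9.49%. Flanking introns were long. The upstream intron had a median of 15205 bases and the downstream intron of 13094.5 bases, beside 9214.5 and 7887.5 bases for recorded circRNAs under 10 reads and 5445.5 and 3995 bases for those without a record. Relative to the median intron of the same transcript the sets were closer. The upstream intron was longer than it in 84.0%, beside 82.3% and 79.8% in the other sets. For the downstream intron the shares were 89.8%, beside 82.8% and 71.0%. All these values are given without a test, since circles of one gene share exons and introns.

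Within the 382, the 189 circles that start at exon 2 had a median upstream intron of 22100 bases and the 190 that start later one of 8370.5 bases, and a median of 19 and 14 reads. The 45 circles of 1 exon had a median of 750 bases and 20 reads, and the 337 of several exons a median of 464 bases and 16 reads. The median log2 fold change was 0.31 both for circles from exon 2 and for those from later exons, and it was 0.20 for circles of 1 exon and 0.31 for those of several.

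**Figure D5:**
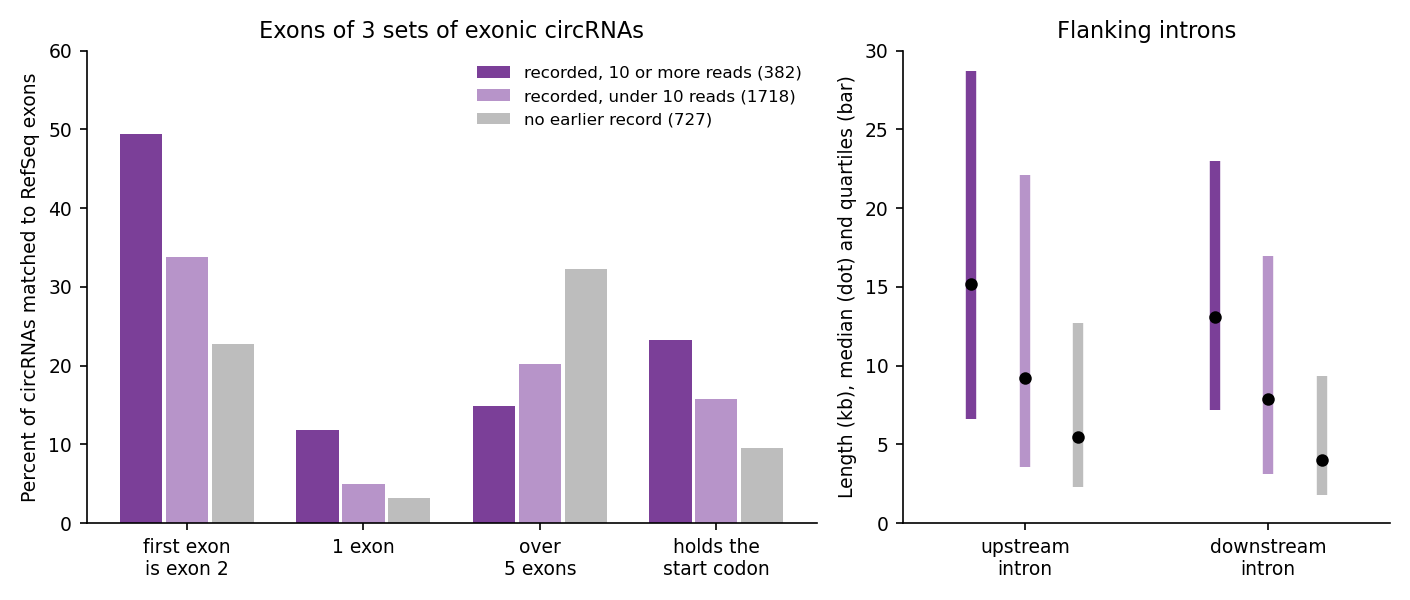
Left, the percent of circles that start at exon 2, have 1 exon, have over 5 exons or hold the start codon, for the recorded exonic circRNAs with at least 10 reads (382 matched to exons), those under 10 reads (1718) and exonic circRNAs without a record (727). Right, the length of the flanking introns in kb, with dots for medians and bars for quartiles. The first set has the most circles from exon 2 (49.5%) and the longest introns on both sides.

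Several circles of 1 gene were common. There were 48 host genes with at least 2 of the circles: 39 had 2, 8 had 3 and Tc2n had 4. Of the 69 pairs of circles from 1 gene, 35 shared the acceptor, 13 the donor and 21 neither. Rasa2 had 2 circles with 1 acceptor, one of exons 2 to 5 with 19, 16 and 15 reads in PBLI and 8, 6 and 10 reads in Control lungs, and one of exons 2 to 4 with 16, 6 and 10 reads in PBLI and 4, 3 and 7 in Control lungs. The groups were apart for the longer one and overlapped for the shorter one, with ratios of 1.74 (interval 1.05 to 2.95) and 1.904 (interval 0.987 to 3.86). Strn3 had 3 circles from exon 2 with 92, 16 and 13 reads in all, of which that of exons 2 to 7 held most.

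By the function of the host, 40 circles of 30 genes came from the list of chromatin and transcription regulators (138 genes), and edgeR called 0 of them, DESeq2 0 and the exact test 0, with 0 at an unadjusted p of at most 0.05. Their median log2 fold change was 0.24, beside 0.32 over the 387. The 26 circles of kinases and phosphatases likewise had 0 calls by these tools and 0 at that p in edgeR, with a median of 0.41, but with RLE or library totals 1 of them was lower. Tlk1, a kinase of chromatin assembly, gave 11, 7 and 19 reads in PBLI and 8, 5 and 14 in Control lungs, and Prkce, a protein kinase C, gave 6, 11 and 12 reads in PBLI and 2, 8 and 7 in Control lungs. Hipk3, a kinase that acts with transcription factors, gave 10, 9 and 20 reads in PBLI and 6, 9 and 10 in Control lungs from exon 2.

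Counts in the other lists were of 1 or 2 circles, beside 4.39% higher and 1.55% lower among the 387. Of 27 circles from regulators of small GTPases 2 were higher (Rtkn2 and Arhgap12) and 1 lower (Arhgap10), and with library totals, the fit of circRNAs with at least 10 reads or DESeq2 only 1 was higher. Of 16 from RNA splicing and RNA binding genes 1 was higher (Xrn2), and with RLE, library totals, that fit, DESeq2 or the exact test 0 were. Of 14 from ubiquitin ligases and deubiquitinases 1 was lower (Spopl), as it was under each of these alternatives. From 20 genes widely described as circRNA hosts there were 30 circles, with 590 reads in PBLI and 427 in Control libraries, 1 higher (Pde5a) and 1 lower (Arhgap10). The circle of exon 2 of Zfp609, a zinc finger protein whose circle is known from muscle, gave 17, 14 and 17 reads in PBLI and 10, 8 and 14 in Control lungs, with groups that met at 14 reads. Those of Elf2, Zfp644, Zfp148 and Pan3 had 33 to 54 reads each, and their groups overlapped. The GTPase-activating protein Arhgap5 gave 17, 8 and 13 reads in PBLI and 6, 5 and 12 in Control lungs, the deubiquitinase Usp3 gave 9, 8 and 8 in PBLI and 2, 13 and 8 in Control lungs, and Cnot6l, a deadenylase, gave 6, 7 and 8 in PBLI and 4, 3 and 7 in Control lungs. These groups overlapped too.

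No circle came from the listed markers of neutrophils, macrophages and monocytes, lymphocytes, airway epithelium, red cells or cardiac muscle. The neutrophil list summed to 378 to 2265 FPKM in PBLI and 171 to 290 FPKM in Control lungs and 1 of its 10 genes rose. From the endothelial list there were 3 circles of Prex2 and Pecam1, with 8, 10 and 12 reads in PBLI and 14, 10 and 15 in Control lungs.

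Genes known to form or break down circRNAs did not pass the test. The table has 35 tested rows for 34 genes, Qk having 2, and limma called 0 at an adjusted p under 0.05. At an unadjusted p under 0.05, 2 were higher and 4 lower, beside 9.15% and 10% of all 14760 genes, so the counts lay near the background. Among those with the smallest p were Esrp1, an epithelial splicing regulator, Hnrnpl, an RNA-binding protein of the nucleus, and Eif2ak2, the kinase PKR that circRNAs can bind. Esrp1 was at 12.5, 11.3 and 13.2 FPKM in PBLI and 8.59, 8.45 and 9.44 FPKM in Control lungs (adjusted p = 0.10). Eif2ak2 was at 22.8, 30.9 and 23.9 FPKM in PBLI and 33.7, 40.2 and 33.7 FPKM in Control lungs.

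Hnrnpl was at 126, 143 and 120 FPKM in PBLI and 161, 186 and 151 FPKM in Control lungs. These 3 genes were named for their small p, so groups that do not overlap are not a finding about the list. None of them passed the adjusted threshold. Qk and Mbnl2, which favor back-splicing, were also hosts. The Qk circle gave 8, 4 and 5 reads in PBLI and 1, 3 and 1 in Control lungs, with groups apart, and the Mbnl2 circle of exon 2 gave 6, 6 and 3 reads in PBLI and 3, 2 and 3 in Control lungs.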

How the data were processed

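Total RNA of 6 lung libraries was depleted of rRNA and sequenced as stranded paired ends. Reads were trimmed with cutadapt (1.9.3). The authors aligned them to mm10 with STAR (2.5.1b) and found circRNAs with DCC (0.4.4), and the deposited circRNA values are counts of junction reads without normalization. The study names edgeR (3.16.5) and TMM for its own test. The deposited mRNA values are FPKM per gene, made by the authors with hisat2 (2.0.4) and cuffdiff (2.2.1). Another 24 columns of single samples were not used: circRNA values on a log CPM scale, mRNA counts that are not whole numbers, and the FPKM and counts of lncRNAs.

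Here junction reads of all 3696 circRNAs were tested with edgeR (4.0.16, TMM, quasi-likelihood). Log2(FPKM + 0.5) of 14760 genes that reached 0.5 FPKM in 1 library or more, and the difference between log2 CPM (prior count 0.5) and log2(host FPKM + 0.5), were tested with limma (3.58.1, trend). P was adjusted by Benjamini and Hochberg's method over all features of a fit. Ratios of reads carry exact 95% binomial intervals that cover counting error only, with TMM library sizes. Hosts were matched by symbol or RefSeq synonym for 384 of the 387 circles. Exons and sequences came from RefSeq on GRCm38.p6, the build mm10. The tests were tried on simulated data. Alternatives were RLE and library totals, a filter of 10 reads, read limits of 5 and 20, DESeq2 (1.42.0), edgeR's exact test, another prior count, other pseudocounts, filters and scalings of FPKM, and leaving out each library. Statistics ran in R (4.3.3), intervals and tables in Python (3.11.15) with scipy (1.17.1), numpy (2.4.6) and pandas (2.3.3), and plots in matplotlib (3.10.9).

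Depth was 2513 to 4733 junction reads per library, which is few for single circles. The replicate is a pool of 2 mice, so p-values measure the spread between pools. The columns of PBLI libraries name the group and G3, G4 and G5 but no sample number. The circles, lists and tests were chosen with earlier results of these data known. Named are the 10 circles with the most reads, those past the thresholds (up to 10 each way by p), the 5 with the smallest p each way, hosts with 4 or more circles, hosts past the adjusted threshold, the 5 highest and lowest in reads per host FPKM, the 10 with the most reads among widely described hosts, the top 3 of each functional list, circles read in 1 group only, and the 4 formation genes with the smallest p, of which 1 is not reported here. Arhgap12, Xrn2, the second Lamp3 circle, the other Strn3 circles, Qk, Mbnl2, the Rasa2 pair, Prex2 and Pecam1 were added after their values were seen.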

Additional observations from a re-analysis of the deposited data

How the results depend on the processing

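Calls past the study thresholds rested on few reads. With library totals 10 circles were lower, with only circRNAs of at least 10 reads fitted 11 were higher, and DESeq2 gave 3 higher. With circles taken from 5 reads 17 were lower, and from 20 reads 6 were higher and 3 lower. Leaving out 1 library gave 16 to 30 higher and 6 to 9 lower, 0 to 3 hosts that rose and 0 to 8 that fell, and 1 to 4 circles higher and 0 to 1 lower relative to the host. Without an FPKM filter 1 host rose and 0 fell, with 51 genes called over all, and with library totals 1 circle was higher relative to the host. The causes were not tested, except that leaving out a library leaves fewer samples.

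Circles that passed no threshold could change sign around 0. With RLE the log2 fold change was -0.0076 for Gigyf2, -0.16 for Sptbn1, -0.011 for Tlk1, -0.13 for Elf2, -0.010 for St6galnac3 and -0.015 for Zfp827. With library totals it was -0.061 for Gigyf2, -0.23 for Sptbn1, -0.025 for Sh2d4b, -0.055 for Tlk1, -0.17 for Elf2, -0.061 for St6galnac3 and -0.052 for Zfp827. With only circRNAs of at least 10 reads fitted it was -0.013 for Gigyf2, -0.19 for Sptbn1, -0.0052 for Sh2d4b, -0.0070 for Tlk1, -0.13 for Elf2, -0.016 for St6galnac3 and -0.014 for Zfp827. With DESeq2 it was -0.0081 for Gigyf2, -0.15 for Sptbn1, -0.014 for Tlk1, -0.12 for Elf2, -0.017 for St6galnac3 and -0.0051 for Zfp827. Leaving out 1 library gave ranges across 0 of -0.56 to 0.41 for the circle of Tns3, -0.53 to 2.42 for Sptbn1, -0.31 to 0.38 for Elf2, -0.25 to 1.44 for Npnt, -0.18 to 0.23 for Mettl9, -0.64 to 1.01 for Sh2d4b, -0.15 to 0.55 for Tlk1, -0.23 to 0.48 for St6galnac3, -0.47 to 0.064 for Zfp644, -1.44 to 0.13 for Ldb2, -0.26 to 0.055 for Med13l, -0.12 to 0.68 for Zfp827, -0.24 to 0.17 for Nfix and -0.57 to 0.49 for Usp3. None of the named circles past the thresholds, and none of the named hosts that rose or fell, changed sign. The cause was not tested.

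No paired analysis was possible because the columns of the PBLI libraries carry no replicate number that matches one of a Control library. Depth limits single circles: for the Pde5a circle of exons 8 to 12, which has the median of 16 reads, the interval of the ratio ran from 0.587 to 6.73.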
